A study of Mus musculus with 4 samples.

Results

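The genes encoding polycomb repressive complex 2 (PRC2) and the demethylases that remove its mark were examined in RNA sequencing of *Dnmt1*-deficient and control cells of the *Hmx3* lineage. The set comprised 10 genes of the 55573 Ensembl identifiers in the deposited count lists, chosen by symbol: the catalytic subunits *Ezh1* and *Ezh2*, the core subunits *Eed*, *Suz12*, *Rbbp4* and *Rbbp7*, the accessory subunits *Jarid2* and *Mtf2*, and the H3K27 demethylases *Kdm6a* and *Kdm6b*. All 10 passed the expression filter that left 16832 genes for testing.

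PRC2 places methyl groups on lysine 27 of histone H3, and the trimethylated form (H3K27me3) marks repressed developmental genes. EZH1 or EZH2 carries the catalytic activity, EED and SUZ12 are required for it, RBBP4 and RBBP7 are histone-binding subunits, and JARID2 or MTF2 define alternative forms of the complex that are recruited to CpG-rich chromatin. KDM6A and KDM6B (also called UTX and JMJD3) take the methyl groups off again, and in the developing brain the balance between both activities accompanies the passage from dividing progenitors to postmitotic neurons.

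Cells were collected at E16, with the day of insemination counted as E1, from the basal telencephalon of mouse embryos, and the living tdTomato-positive fraction was enriched by fluorescence-activated cell sorting (FACS). All libraries carried *Hmx3-Cre*, which drives recombination only in cells that have expressed *Hmx3* (a homeobox gene of the preoptic area, POA), and the *tdTomato* reporter. Cells of 12 embryos were pooled for the 2 wild-type (WT) libraries and those of 6 embryos for the 2 knockout (KO) libraries, in which the loxP2 allele lost exons 4 and 5 of *Dnmt1*. The series text calls the libraries of a genotype biological replicates and the study's methods call them technical duplicates, so SDs and p-values cover only the spread between these libraries. The sex of the embryos was not given.

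Library totals ranged from 8075102 to 9995968 counts, at which 3 counts correspond to 0.293 to 0.371 CPM (the count rate relative to the TMM-scaled library size). The mitochondrial share was 9.55% in WT replicate 1, against 1.95% to 2.73% elsewhere. The targeted gene *Dnmt1*, counted over all of its exons, gave 3103 and 4557 counts in the WT libraries against 2383 and 2552 in the KO libraries, and its log2 fold change of -0.56 (SE 0.14) had an adjusted p of 0.0511 in edgeR and 0.00843 in DESeq2. Without WT replicate 1 it was -0.67 and without WT replicate 2 -0.46, and without KO replicate 1 or KO replicate 2 it was -0.55 in both cases. A fit without 1 library takes its spread from the genotype that keeps 2 libraries, here and below. Its p-values and calls are therefore not read as evidence for a difference. With library size as the only scaling, the estimate was -0.46 (edgeR adjusted p = 0.150), and with at least 10 counts in every library -0.52 (edgeR adjusted p = 0.0739). With DESeq2's size factors in edgeR it was -0.57 (adjusted p = 0.0467). After correction for GC content and length it was -0.65 (edgeR adjusted p = 0.000475). Of the 16832 genes, edgeR's quasi-likelihood test called 1329 at an adjusted p under 0.05 (7.9%), with 1233 higher in KO (7.33%) and 96 lower (0.57%).

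None of the 10 genes was called between the genotypes, so that 0 of 10 stood against the 7.9% of all genes tested. At an unadjusted p under 0.05, edgeR gave 2 of 10, *Mtf2* and *Kdm6b*, beside 22.7% of all genes, and DESeq2 called 0 of 10, beside 8.87%. The log2 fold changes ran from -0.59 for *Mtf2* to 0.47 for *Kdm6b*, with 8 of them below 0 (7 when the scaling used library size only, with *Eed* at 0.070) and a median of -0.14, where all genes tested had a median of -0.03 and the middle 90% spanned -0.69 to 2.17. Both KO libraries lay above both WT libraries for 2 genes, *Ezh1* and *Kdm6b* (28.3% of all genes did so), and below them for 5, *Ezh2*, *Rbbp4*, *Jarid2*, *Mtf2* and *Kdm6a* (25.2% of all genes), so that the genotypes were apart for 7 of 10, beside 53.5% of all genes. An adjusted p above the threshold does not show that the levels were equal. The 95% intervals, which are not adjusted for the number of genes, stayed within 1 on the log2 scale on either side of 0 for 8 of the 10 genes, and those of *Suz12* and *Mtf2* reached further.

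**Figure D1:**
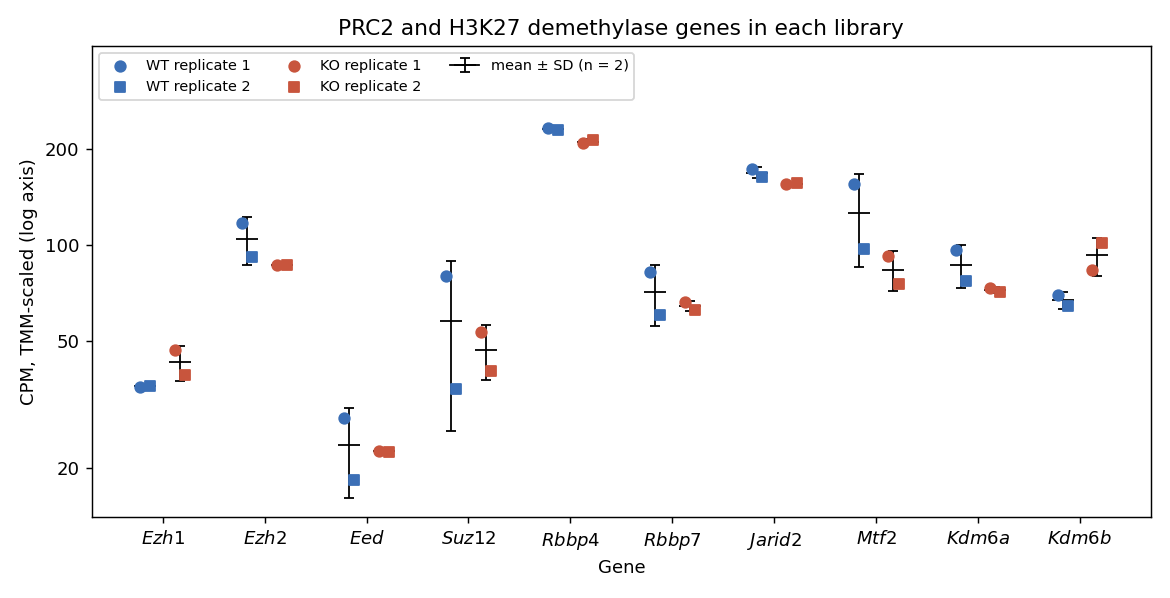
Level of each PRC2 and H3K27 demethylase gene in each library, as CPM on a log axis; circles and squares are replicates 1 and 2, blue is WT and red is KO, and the bars give the mean ± SD (n = 2). The WT libraries stood widest apart for *Suz12*, at 79.9 and 35.2 CPM, and the KO libraries of *Kdm6b* lay above its WT libraries.

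The catalytic subunits differed in the sign of their estimates. *Ezh2*, which encodes the main methyltransferase of dividing cells, lies on the minus strand of chromosome 6 (GRCm38, 47530139 to 47595341) and was counted at 117 and 91.7 CPM in WT and at 86.6 and 86.2 CPM in KO. The KO libraries were nearly equal and both below WT replicate 2, the lower of the WT libraries. The means were 104 ± 17.7 CPM in WT and 86.4 ± 0.318 CPM in KO (SD, n = 2), and the log2 fold change was -0.27 (SE 0.16, 95% interval -0.65 to 0.11, edgeR adjusted p = 0.373). Without WT replicate 2 the log2 fold change was -0.44, and without WT replicate 1 it was -0.093.

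*Ezh1*, the paralogue that is kept in postmitotic cells, lies on the minus strand of chromosome 11 (101191115 to 101226463). Its WT libraries were nearly equal at 35.9 and 36.1 CPM, and the KO libraries stood above them at 46.7 and 39.1 CPM. The log2 fold change was 0.25 (SE 0.17, 95% interval -0.13 to 0.64, edgeR adjusted p = 0.413). Per kb of exon, *Ezh1* was the lowest of the 10 genes, with a mean level of 5.30 CPM per kb against 14.3 for *Ezh2*. The *Ezh1* to *Ezh2* ratio of levels per kb, which does not depend on the scaling of a library, was 0.276 and 0.354 in WT and 0.484 and 0.407 in KO. It was higher in both KO libraries than in either WT library, by 1.42-fold in the geometric mean, and the exact two-sided permutation p of 0.333 was the smallest that 2 libraries against 2 allow. The ratio was not corrected for GC content, which was 51.2% for *Ezh1* and 44.4% for *Ezh2*. After the GC and length correction described below, the log2 fold changes were 0.20 for *Ezh1* and -0.17 for *Ezh2*.

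The core subunits without catalytic activity had estimates near or below 0, and none was called. *Eed*, which encodes the subunit that reads H3K27me3 (minus strand of chromosome 7, 89954654 to 89980983), was counted at 28.7 and 18.3 CPM in WT and at 22.6 and 22.4 CPM in KO. Both KO libraries fell between the WT libraries, and the log2 fold change was -0.05 (SE 0.24, 95% interval -0.62 to 0.51, edgeR adjusted p = 0.923). *Suz12*, whose product holds the core complex together (plus strand of chromosome 11, 79993106 to 80034123), was counted at 79.9 and 35.2 CPM in WT and at 53.3 and 40.3 CPM in KO. Its KO libraries again fell between the WT libraries, which differed by 1.18 on the log2 scale, more than 90.2% of all genes tested. The log2 fold change of *Suz12* was -0.29 (SE 0.34, 95% interval -1.08 to 0.49, edgeR adjusted p = 0.651). The sign rested on WT replicate 1, because without that library the estimates were 0.29 for *Eed* and 0.40 for *Suz12*, neither of them called. Without WT replicate 2 the estimate of *Suz12* was -0.78.

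*Rbbp4* and *Rbbp7* encode histone chaperones that also belong to the NuRD and SIN3 deacetylase complexes, and *Rbbp4* was the highest of the 10 genes per kb of exon, at a mean of 25.2 CPM per kb. *Rbbp4* (minus strand of chromosome 4, 129307100 to 129335370) was counted at 232 and 228 CPM in WT and at 208 and 213 CPM in KO. The groups did not overlap, yet the log2 fold change was only -0.13 (SE 0.13, 95% interval -0.43 to 0.17, edgeR adjusted p = 0.602). *Rbbp7* (plus strand of the X chromosome, 162760402 to 162779092) was counted at 82.0 and 60.0 CPM in WT and at 66.0 and 62.6 CPM in KO, so that the groups overlapped. Its log2 fold change was -0.14 (SE 0.18, 95% interval -0.56 to 0.27, edgeR adjusted p = 0.684), and it was 0.09 without WT replicate 1. The *Rbbp7* to *Rbbp4* ratio of levels per kb was 1.06 and 0.790 in WT and 0.953 and 0.882 in KO, with an exact permutation p of 1. Both genes share exons with others on the opposite strand, *Rbbp4* with *Sync* and *Gm26722* over 8.94% and 9.10% of its exonic bases and *Rbbp7* with *Txlng* over 5.98%.

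Neither accessory subunit was called. *Mtf2* encodes a Polycomb-like protein that binds unmethylated CpG-rich DNA and lies on the plus strand of chromosome 5 (108065674 to 108109004). The WT libraries held 1249 and 994 counts and the KO libraries 776 and 684, or 154.5 and 97.1 CPM against 91.9 and 75.1 CPM. Both KO libraries were below both WT libraries, although KO replicate 1 came close to WT replicate 2. The level in KO was 0.665 times that in WT (95% interval 0.460 to 0.959), a log2 fold change of -0.59 (SE 0.23, unadjusted p = 0.0332, edgeR adjusted p = 0.178). This estimate moved with the WT libraries, to -0.23 without WT replicate 1 and to -0.90 without WT replicate 2. Without a filter on low counts it was -0.58 (edgeR adjusted p = 0.0158).

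*Jarid2* encodes the DNA-binding subunit of the other accessory form (plus strand of chromosome 13, 44729474 to 44921643) and was counted at 173 and 163 CPM in WT and at 155 and 156 CPM in KO. The groups did not overlap, but the log2 fold change of -0.12 (SE 0.14, 95% interval -0.43 to 0.19) had an edgeR adjusted p of 0.651. The *Jarid2* to *Mtf2* ratio of levels per kb was 0.658 and 0.988 in WT and 0.986 and 1.22 in KO, and the groups overlapped by the narrowest of margins (exact permutation p = 0.667).

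The demethylases had estimates of opposite sign. *Kdm6b* (minus strand of chromosome 11, 69398508 to 69413675), an inducible demethylase, was read 564 and 656 times in WT and 705 and 925 times in KO. Its level was 69.8 and 64.1 CPM in WT and 83.5 and 101.5 CPM in KO, and the groups did not overlap. The KO to WT ratio was 1.38 (95% interval 1.07 to 1.78), a log2 fold change of 0.47 (SE 0.16, unadjusted p = 0.0186, edgeR adjusted p = 0.129). The estimate of *Kdm6b* was 0.52 without WT replicate 1 and 0.40 without WT replicate 2. It was 0.62 without KO replicate 1 and 0.33 without KO replicate 2.

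*Kdm6a*, which is X-linked and escapes X inactivation (plus strand, 18162575 to 18279936), was counted at 96.1 and 77.1 CPM in WT and at 73.3 and 71.2 CPM in KO. The KO libraries were below both WT libraries, and the log2 fold change was -0.26 (SE 0.16, 95% interval -0.63 to 0.11, edgeR adjusted p = 0.379). The share of female cells in each pool was not given, and its part in this value was not tested. Without WT replicate 2 the estimate of *Kdm6a* was -0.42, and without WT replicate 1 it was -0.10. The *Kdm6b* to *Kdm6a* ratio of levels per kb was 0.875 and 1.001 in WT and 1.37 and 1.72 in KO. This ratio was 1.64-fold higher in KO in the geometric mean, with the groups apart and the exact permutation p again at its smallest possible value of 0.333. It was not corrected for GC content, which was 59.6% for *Kdm6b* and 42.5% for *Kdm6a*. After the GC and length correction, the log2 fold changes were 0.36 for *Kdm6b* and -0.09 for *Kdm6a*. Together, leaving out WT replicate 2 called 5 of the 10 genes, beside 23.3% of all genes tested in that comparison, and leaving out WT replicate 1 called 1 of 10, beside 21.3%. Without KO replicate 1 or KO replicate 2, 0 of 10 were called, beside 5.97% and 5.37% of all genes.

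**Figure D2:**
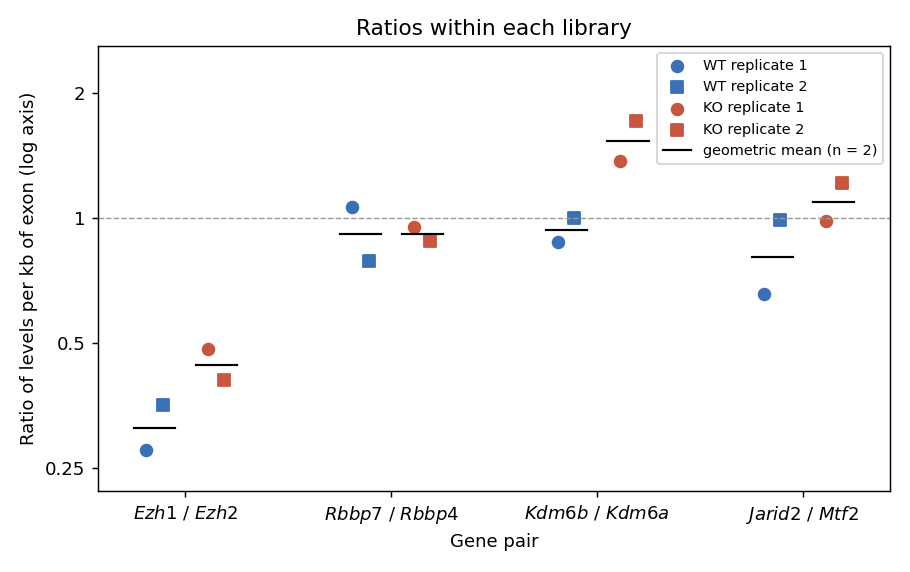
Ratio of levels per kb of exon between related genes in each library, on a log axis; circles and squares are replicates 1 and 2, blue is WT and red is KO, and black lines are geometric means (n = 2). The *Ezh1* to *Ezh2* and *Kdm6b* to *Kdm6a* ratios lay higher in both KO libraries than in either WT library, while the other ratios overlapped. The ratios were not corrected for GC content.

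The promoters of the catalytic pair and of the subunits with the most variable counts are shown because DNMT1 acts on CpG sites. The stretches are from the RefSeq tables of GRCm38, run 5′ to 3′ on the strand of the gene within the 250 bases before a RefSeq start, and leave out annotated exons. Capitals mark the CCAAT box (CCAAT, or ATTGG on the other strand) and the E2F motif (TTTCCCGC, TTTGGCGC, TTTCGCGC or TTTGCCGC, either strand), the binding site of the cell-cycle E2F factors.
*Ezh1*, chr11:101226464-101226713, minus strand: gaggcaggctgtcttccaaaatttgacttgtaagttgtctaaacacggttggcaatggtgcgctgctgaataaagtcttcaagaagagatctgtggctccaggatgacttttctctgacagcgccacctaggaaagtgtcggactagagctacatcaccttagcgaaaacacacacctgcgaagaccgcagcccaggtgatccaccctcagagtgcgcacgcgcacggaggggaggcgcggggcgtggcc
*Ezh2*, chr6:47595059-47595183, minus strand: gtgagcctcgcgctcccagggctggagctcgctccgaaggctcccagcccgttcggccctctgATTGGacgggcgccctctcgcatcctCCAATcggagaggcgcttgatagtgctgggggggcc
*Suz12*, chr11:79992856-79993105, plus strand: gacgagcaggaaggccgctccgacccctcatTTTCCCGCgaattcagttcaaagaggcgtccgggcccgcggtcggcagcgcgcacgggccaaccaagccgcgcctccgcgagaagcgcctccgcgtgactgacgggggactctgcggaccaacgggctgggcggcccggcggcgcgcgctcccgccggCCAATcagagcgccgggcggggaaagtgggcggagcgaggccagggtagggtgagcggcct
*Mtf2*, chr5:108065424-108065673, plus strand: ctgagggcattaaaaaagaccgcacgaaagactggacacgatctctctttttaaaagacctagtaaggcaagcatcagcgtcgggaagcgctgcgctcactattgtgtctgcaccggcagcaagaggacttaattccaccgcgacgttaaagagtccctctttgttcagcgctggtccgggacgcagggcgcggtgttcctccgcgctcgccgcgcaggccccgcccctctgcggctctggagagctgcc

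Counted over the full 250 bases, the *Suz12* window held 37 CpG sites, the 97.8th percentile of the 32851 windows of this length, and it was the only one among the 9 genes with a window to hold an E2F motif, which 1.86% of all windows contain. The windows of *Ezh2* and of the first start of *Mtf2* held 23 CpG sites each and that of *Ezh1* 14, against a median of 6 over all windows. *Rbbp4* with 30 sites, *Rbbp7* with 34 and *Jarid2* with 23 and 22 at its 2 starts were also CpG-rich, *Kdm6a* had 15 and *Eed* 12, and the second start of *Mtf2* had 2. A CCAAT box was found in 6 of the 11 windows of these genes, for *Mtf2* at the second start, and in 33.8% of all windows. The windows of *Ezh1*, *Eed* and *Kdm6a* held neither motif, and *Kdm6b* had no window in the table. A match describes the letters only, and DNA methylation of these windows was not analysed here.

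**Figure D3:**
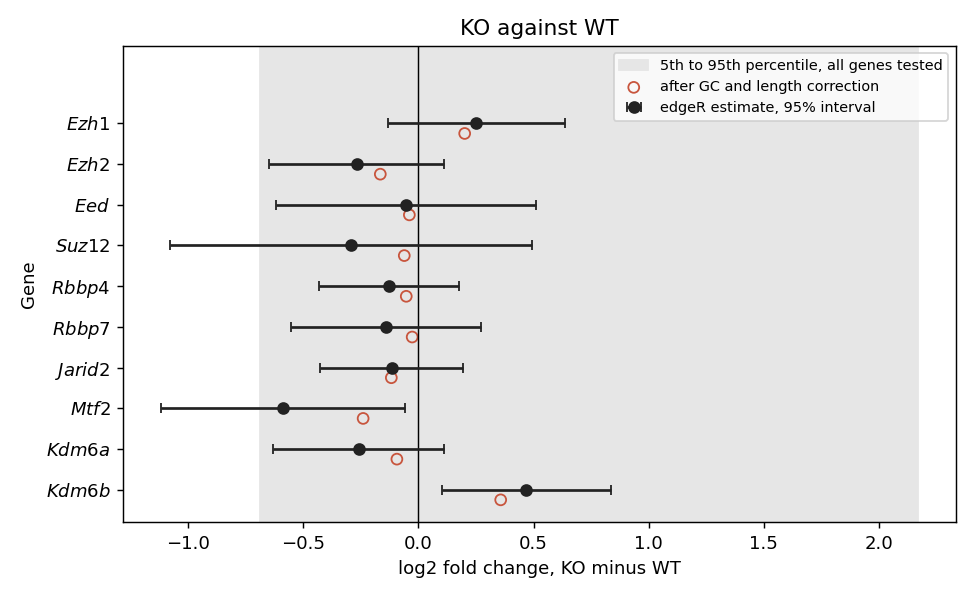
Log2 fold change of each gene, KO minus WT, with the 95% interval of the edgeR estimate (filled points, n = 2 libraries per genotype) and the estimate after correction for GC content and length (open points); the grey band spans the 5th to 95th percentile of all genes tested. All 10 estimates lay inside the band, and only the intervals of *Mtf2* and *Kdm6b* left out 0.

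The spread within WT exceeded the spread within KO for most of the genes. Of the 10, 7 had a larger log2 difference between the WT libraries than between the KO libraries, and WT replicate 1 was above WT replicate 2 for 9, where 53.2% of all genes tested were. The median absolute log2 difference was 0.33 between the WT libraries, the same as over all genes (0.33), and 0.06 between the KO libraries, below the 0.19 over all genes. The differences between the WT libraries were 1.18 for *Suz12*, 0.67 for *Mtf2*, 0.65 for *Eed* and 0.45 for *Rbbp7* on the log2 scale, and they stayed between -0.01 and 0.35 for the others. Summed over the 10 genes, the level was 1069 CPM in WT replicate 1, and the other libraries lay between 867 and 887 CPM.

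The estimates followed the base composition of the transcripts closely. *Mtf2*, with 38.2% GC in its longest transcript, had the lowest estimate, and *Kdm6b*, with 59.6% GC, had the highest, at the 4.12th and 94.9th percentile of GC content among all genes. Over the 10 genes, Spearman's rho between GC content and log2 fold change was 0.976, against 0.210 over 16822 genes and 0.263 over the 41 tested genes of 6 related lists below, which leave out the proliferation genes and the H3K27me3 targets. The points are genes measured in the same 4 libraries and are not independent. GC content also went with the difference between the WT libraries, with a rho of -0.709 over the 10 genes and -0.519 over all genes. After each library was corrected for its trend with GC content and length, the estimate of *Mtf2* was -0.24 (edgeR adjusted p = 0.150), that of *Suz12* -0.06, that of *Kdm6a* -0.09, that of *Ezh2* -0.17 and that of *Kdm6b* 0.36 (adjusted p = 0.0968), and rho over the 10 genes was 0.709. The part of base composition in the differences between the genotypes was not tested further.

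**Figure D4:**
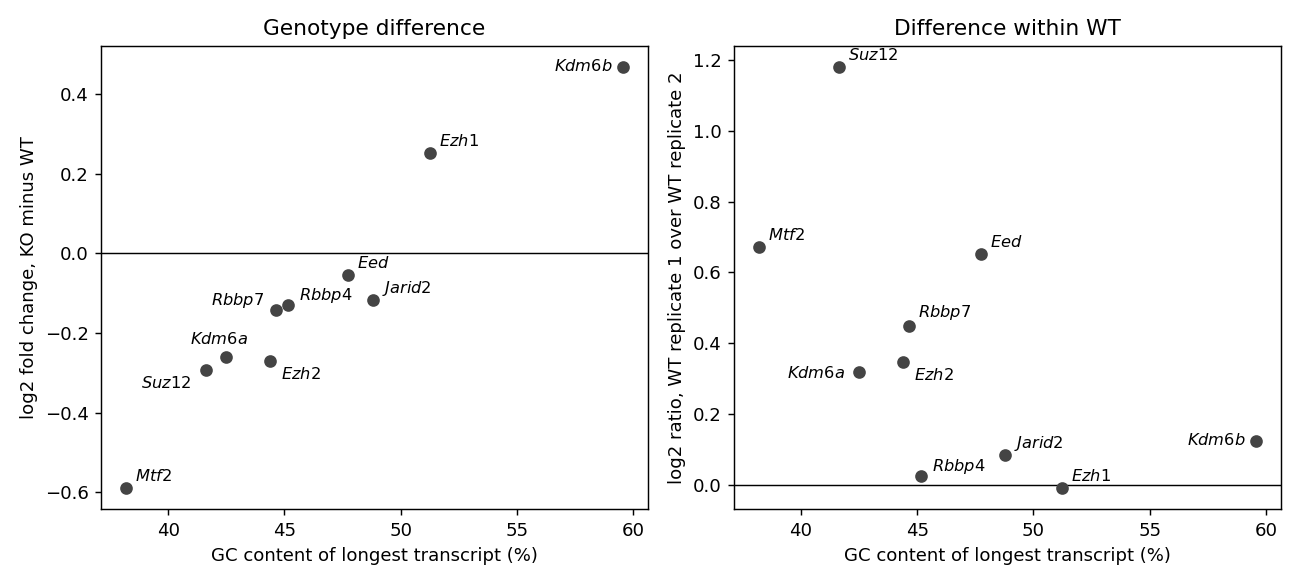
GC content of the longest transcript in percent against the log2 fold change between KO and WT (left) and against the log2 ratio of WT replicate 1 to WT replicate 2 (right); each point is 1 of the 10 genes. The left panel runs from *Mtf2* at 38.2% GC to *Kdm6b* at 59.6% GC almost in order of GC content, and in the right panel *Suz12* and *Mtf2*, both low in GC, show the largest difference.

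Per kb of exon and averaged over the libraries, the levels ran in the order *Rbbp4* (25.2 CPM per kb), *Rbbp7* (23.3), *Mtf2* (18.4), *Jarid2* (16.7), *Ezh2* (14.3), *Kdm6b* (11.5), *Suz12* (10.6), *Kdm6a* (9.48), *Eed* (6.01) and *Ezh1* (5.30). *Rbbp4* was 4.76-fold above *Ezh1*. *Rbbp7* exceeded *Mtf2*, *Jarid2* exceeded *Ezh2* and *Kdm6a* exceeded *Eed* in all 4 libraries. Every other gene exceeded the next in the order in only 2 or 3 libraries, so that on this length those neighbours did not differ beyond their spread. The length was the union of all exons of a gene. With the length of a single transcript the order could differ, which was not tested.

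The genes with the most similar profile over the 4 libraries were sought among 10169 genes of at least 10 CPM, by the Euclidean distance between log2 profiles centred on their means. The nearest to *Ezh2* were *Srsf6* (0.0165), *Fam13b* (0.0194), *Smarcc1* (0.0241), *Coch* (0.0253) and *Prkar2a* (0.0288). Like *Ezh2*, these genes were highest in WT replicate 1 and nearly level over the other libraries, as in *Srsf6* with 378 and 297 CPM in WT and 284 and 282 CPM in KO. Near to *Kdm6b* were *Safb2* (0.0558), *Sgcd* (0.0625), *Map1a* (0.0625) and *Tet2* (0.0641), all highest in KO replicate 2, as in *Safb2* with 101 and 87.9 CPM in WT and 119 and 141 CPM in KO. None of these 9 genes was called by edgeR (smallest adjusted p = 0.132), and with 4 libraries a close profile is easily met.

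Other accessory subunits of PRC2 were followed as a list of 7, of which 6 were tested and 0 called by edgeR in either direction, with 1 at an unadjusted p under 0.05 and a median log2 fold change of 0.05. That gene was *Lcorl*, a component of one accessory form, read 1540 and 1037 times in WT and 731 and 592 times in KO. The groups did not overlap, and the log2 fold change of -0.94 (SE 0.29) had an adjusted p of 0.0966 in edgeR and 0.00562 in DESeq2. The estimate of *Lcorl* was -0.43 without WT replicate 1, -1.34 without WT replicate 2 and -1.15 without KO replicate 1. That of *Lcor* was -0.21, and -0.44 without WT replicate 2. After the GC and length correction, *Lcorl* was at -0.51 (edgeR adjusted p = 0.00753), closer to 0 than without it. The estimates of *Phf1*, *Phf19*, *Aebp2* and *Epop* were 0.22, 0.61, 0.02 and 0.08, and *Ezhip* was not matched to a GENCODE symbol.

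Among 4 further demethylases of the KDM6 and KDM7 families, edgeR and DESeq2 called 0, and 0 had an unadjusted p under 0.05 (median -0.12). *Uty*, the Y-linked relative of *Kdm6a*, was read 218 and 117 times in WT and 231 and 189 times in KO (log2 fold change 0.34, SE 0.37), and its presence shows male cells in every library. It was past the threshold without WT replicate 1 (1.06, edgeR adjusted p = 0.000128) and with the GC and length correction (0.88, adjusted p = 0.00612). *Kdm7a*, which removes dimethyl marks at H3K9 and H3K27, had an estimate of -0.58 (edgeR adjusted p = 0.235), and -0.97 without WT replicate 2 (adjusted p = 2.23e-09). *Phf8* and *Phf2* were at -0.19 and -0.06.

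KDM6A works inside a H3K4 methyltransferase complex, and of 9 partners in that complex 8 were tested, 1 was higher in KO and 0 lower (median -0.06). The higher gene was *Kmt2d*, the main methyltransferase partner of KDM6A at enhancers. The WT libraries held 1391 and 1687 of its reads and the KO libraries 2465 and 3289, or 172 and 165 CPM against 292 and 361 CPM, and the groups were far apart. *Kmt2d* rose by 0.96 on the log2 scale (SE 0.15, edgeR adjusted p = 0.00661), and without KO replicate 2 the estimate was 0.80 with an adjusted p of 0.0888. Its paralogue *Kmt2c* was at 0.32 (edgeR adjusted p = 0.234) and was past the threshold without WT replicate 1 (0.42, adjusted p = 0.00281). The estimates of *Ncoa6*, *Wdr5*, *Paxip1*, *Rbbp5*, *Ash2l* and *Dpy30* lay between -0.25 and 0.13, and *Pagr1a* was at 0 counts in all libraries.

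The acetyltransferases that compete for the same lysine, *Crebbp* and *Ep300*, were not called by edgeR or DESeq2 and had unadjusted p-values above 0.05, with estimates of 0.12 and -0.08. Of the 5 CBX proteins that read H3K27me3, 1 was higher in KO and 0 lower (median -0.13). *Cbx7* was read 99 and 168 times in WT and 210 and 263 times in KO, and both KO libraries lay above both WT libraries. Its log2 fold change of 0.90 (SE 0.23) had an edgeR adjusted p of 0.0496, at the edge of the threshold, and it was not called without KO replicate 1 (1.02, adjusted p = 0.0762) or without KO replicate 2 (0.80, adjusted p = 0.350). *Cbx2*, *Cbx6* and *Cbx8* had estimates of -0.13, -0.04 and -0.29.

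**Figure D5:**
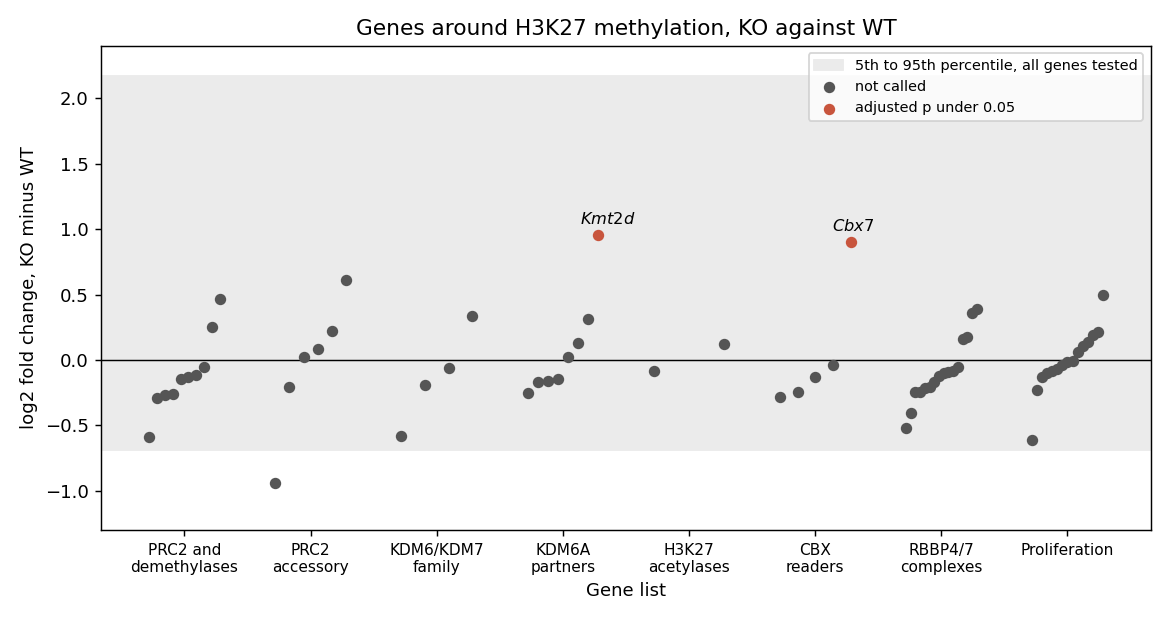
Log2 fold change, KO minus WT, of each tested gene in the PRC2 and demethylase set and in 7 lists of related genes, from the accessory subunits to the proliferation genes and without the H3K27me3 targets; red points have an edgeR adjusted p under 0.05, and the grey band spans the 5th to 95th percentile of all genes tested. *Kmt2d* (0.96) and *Cbx7* (0.90) were the 2 genes called, and *Lcorl* (-0.94) lay below the band.

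Of 16 other subunits of the complexes that share RBBP4 and RBBP7, 0 were called by edgeR, 1 had an unadjusted p under 0.05 and DESeq2 called 1 (median -0.11). That gene, named after its values were seen, was *Hdac2*, a histone deacetylase, read 2852 and 3190 times in WT and 2062 and 1985 times in KO (log2 fold change -0.52, SE 0.14, edgeR adjusted p = 0.0707). Without WT replicate 1, edgeR called 3 of the 16, beside 21.3% of all genes, and without WT replicate 2 it called *Hdac2* alone, beside 23.3%.

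Known H3K27me3 targets, chosen as 22 genes that are silent in most brain cells or named in the study, had at most 27 counts in any library except for *Pak6*. Only 2 passed the expression filter, 0 were called by edgeR or DESeq2, and 1 had an unadjusted p under 0.05. *Pak6*, a kinase gene, was read 714 and 1109 times in WT and 600 and 700 times in KO (log2 fold change -0.41, SE 0.16, edgeR adjusted p = 0.178), and it was past the threshold without WT replicate 1 (-0.56, adjusted p = 0.00353). *Lhx1*, a LIM-homeobox gene of the POA, was read 27 and 10 times in WT and 5 and 12 times in KO, so that the groups overlapped (log2 fold change -1.13, SE 0.76, edgeR adjusted p = 0.422). The *Lhx1* estimate was -0.03 without WT replicate 1, -1.79 without WT replicate 2, -0.67 without KO replicate 1 and -1.81 without KO replicate 2, with edgeR adjusted p-values from 0.0775 to 0.988. *Myod1*, the muscle determination gene, was not read in WT and had 1 count in each KO library. Of the 22, 8 were at 0 in all libraries. *Cdkn2b*, a cell-cycle inhibitor gene named after its values were seen, had 0 counts in both WT libraries, 12 in KO replicate 1 and 3 in KO replicate 2.

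The 15 proliferation genes, followed because *Ezh2* is high in dividing cells, summed to 695 and 686 CPM in WT and to 686 and 680 CPM in KO. None was called by edgeR or DESeq2, 1 had an unadjusted p under 0.05, and the median log2 fold change was -0.01. *Mcm3*, named after its values were seen, was past the threshold without WT replicate 2 (0.78, edgeR adjusted p = 0.00222).

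Markers of other cell types moved with the genotype. The 10 astrocyte markers summed to 242 to 251 CPM in WT and 3400 to 3595 CPM in KO, with 10 of 10 higher and *Gfap* at 0 counts in both WT libraries. Of 10 oligodendrocyte markers 7 were higher (290 to 322 CPM in WT, 820 to 825 in KO), and of 8 mural cell markers 7 were higher (314 to 334 and 735 to 798 CPM), with *Acta2* at 0 counts in WT. Of 7 radial glia markers 1, *Hes1*, was higher (960 to 961 CPM in WT, 1095 to 1162 in KO), of 6 tested microglia markers 1, *Csf1r*, was higher (26.5 to 30.3 and 51.3 to 58.2 CPM), and of 4 tested endothelial markers 0 were called by edgeR or DESeq2 and 2 had an unadjusted p under 0.05, with sums of 9.37 to 14.7 CPM. Of 10 neuron markers 3 were lower, *Stmn2*, *Syt1* and *Elavl4*, and 8 had an unadjusted p under 0.05 (6174 to 6719 CPM in WT, 4525 to 4581 in KO). The 7 GABAergic markers (1234 to 1381 CPM in WT, 1057 to 1144 in KO) and *Hmx2* with *Hmx3* (208 to 234 and 180 to 199 CPM) were present in every library, and 0 of them were called by edgeR or DESeq2, with 2 and 1 at an unadjusted p under 0.05. Which markers were called changed when single libraries were left out, and *Hes1* and *Csf1r* were not called without KO replicate 2. The radial glia markers did not all move the same way, with 6 estimates above 0 and 1 below. *Sox2*, one of them, was at -0.44 without WT replicate 2. With the GC and length correction, edgeR called 2 GABAergic markers lower, *Dlx5* (-0.67, adjusted p = 0.0481) and *Slc32a1* (-0.42, adjusted p = 0.0321), and *Hmx2* lower (-0.45, adjusted p = 0.0111). In such bulk samples, fewer cells of a type and less RNA per cell cannot be told apart, and the part of cell composition in the values of the PRC2 and demethylase genes was not tested.

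Overlap with other transcripts limits some of the counts. Besides *Rbbp4* and *Rbbp7*, exons on the opposite strand overlap *Mtf2* (*Tmed5*, 6.93% of its exonic bases), *Eed* (*E230029C05Rik*, 6.82%), *Kdm6b* (*Kdm6bos*, 4.11%), *Suz12* (*Gm26563*, 3.60%) and *Ezh2* (*Gm26625*, 2.61%), and without a stated strand setting reads from both strands cannot be told apart. The processed pseudogene *Gm6382* matches the *Rbbp7* transcript at 97.1% identity over 942 bases and had 0 counts in all libraries.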

How the data were processed

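RNA sequencing of sorted cells gave 4 libraries, 2 WT and 2 KO, grouped by the genotype in the sample labels. The deposited files hold raw read counts for each Ensembl gene, as the authors made them and without scaling. Per the submitters' processing notes, CASAVA 1.8.2, STAR 2.5.2a and featureCounts 1.5.0-p1 were used with mm10/GRCm38. The annotation release and strand setting are not given in the sources used here. Of 55573 identifiers, 55480 were matched to GENCODE M21 (GRCm38), which supplied symbols, positions, exonic length (union of exons) and the GC content of the longest transcript.

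Counts were filtered with edgeR's expression filter, scaled by TMM and tested by quasi-likelihood in edgeR 4.0.16 (R 4.3.3 with limma 3.58.1), with genotype as the only term and Benjamini-Hochberg adjustment over all 16832 genes. Genes under an adjusted p of 0.05 are called. SEs were derived from the test statistic, and SDs, intervals and floors do not cover variation between embryos. Ratios per kb were compared with an exact two-sided permutation test over libraries.

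The 10 genes and all lists were chosen with earlier results of these data known. Named are these genes in full, the genes of lists of 10 or fewer or those called, *Lhx1*, *Pak6*, *Myod1*, *Dnmt1* and, for *Ezh2* and *Kdm6b*, the 5 nearest profiles; others were named after their values were seen. Some genes under this rule are not reported here.

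Alternatives were DESeq2 1.42.0, DESeq2's size factors, library size only, no filter, a floor of 10 counts in every library, a GC content and length correction (splines with 4 df), a block on the replicate number, block and correction together, and each library left out. Removal of the mitochondrial genes was added after the data were seen. On simulated counts (16324 genes, 200 changed by 2 on the log2 scale, KO against WT), edgeR recovered 99.5% with 3.86% of its calls false, and DESeq2 94% with 1.57%. All simulated libraries had the same spread, and the planted changes were larger than any estimate among the 10 genes. The recovery therefore does not apply to changes as small as theirs. MeDIP data were not analysed here.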

Additional observations from a re-analysis of the deposited data

How the results depend on the processing

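The 10 genes were compared under 9 alternatives besides leaving out libraries, and 86 of 90 estimates kept their sign and their side of the threshold. Of the others, *Eed* turned to 0.070 with library size as the only scaling, which moved the median of all genes by 0.11, *Mtf2* was called without a filter (-0.58, edgeR adjusted p = 0.0158) and *Kdm6b* with the block and the GC and length correction together (0.36, adjusted p = 0.0311). The replicate number as a block called *Mtf2* as well (-0.56, adjusted p = 0.0192). The number is all that same-numbered libraries are known to share, with a correlation of their deviations of 0.137 over 16832 genes. The count over the 10 genes was thus 1 under each of these 3 settings, where 7.88% (no filter), 13.3% (block) and 20.2% (block and correction) of all genes were called.

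Over all genes, the calls numbered 2363 without a filter, 883 with at least 10 counts in every library, 2244 with the block (1625 higher, 619 lower), 2751 with the correction (1891 higher, 860 lower) and 3407 with both (2209 higher, 1198 lower), and the lower calls numbered 573 without a filter, 52 with at least 10 counts and 247 in DESeq2. Among the lists, the accessory subunits gave 1 with library size only, DESeq2, no filter, the block, the correction and both, and the KDM6 and KDM7 demethylases gave 1 with no filter (*Kdm7a*), the correction and both (*Uty*, 0.88 and 0.89). The KDM6A partners gave 2 with the correction, the CBX readers 0 with at least 10 counts (*Cbx7* 0.94, edgeR adjusted p = 0.0505), the RBBP4 and RBBP7 complexes 1 with DESeq2, no filter and the block, 4 of 16 with the correction, where 16.3% of all genes were called, and 5 of 16 with both, where 20.2% were, and the targets 1 with the correction and with both. The GABAergic markers gave 2 with the correction and 3 with both, and *Hmx2* with *Hmx3* 1 with each. The neuron markers, 3 in edgeR, gave 5 with DESeq2, 8 without a filter, 6 with the block, 7 with the correction and 9 with both, and over these 5 settings the radial glia markers gave 1 to 4 and the microglia markers 2 to 3, against 1 each in edgeR. The cause of these changes was not tested. Removing the mitochondrial genes changed none of the calls among the 10 genes.

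With 1 library left out, the lone library of its genotype is assumed to vary like the other genotype. The calls then ranged from 951 to 4209 (900 to 2578 higher, 51 to 2180 lower), and from 0 to 5 of the 10 genes, 0 to 2 accessory subunits, 0 to 1 demethylases, 0 to 2 KDM6A partners, 0 to 1 CBX readers, 0 to 3 of the RBBP4 and RBBP7 complexes, 0 to 1 targets and 0 to 1 proliferation genes. The log2 fold changes ranged from 0.13 to 0.38 for *Ezh1*, -0.44 to -0.093 for *Ezh2*, -0.36 to 0.29 for *Eed*, -0.78 to 0.40 for *Suz12*, -0.15 to -0.10 for *Rbbp4*, -0.36 to 0.090 for *Rbbp7*, -0.17 to -0.08 for *Jarid2*, -0.90 to -0.23 for *Mtf2*, -0.42 to -0.10 for *Kdm6a* and 0.33 to 0.62 for *Kdm6b*. The *Rbbp7* to *Rbbp4* ratio, at a log2 difference of 0.0025, ranged from -0.21 to 0.22 and was -0.05 without KO replicate 1. The log2 difference of the *Ezh1* to *Ezh2* ratio ranged from 0.327 to 0.685. That of the *Kdm6b* to *Kdm6a* ratio ranged from 0.553 to 0.876 and that of the *Jarid2* to *Mtf2* ratio from 0.150 to 0.737. Depth limits what can be said of the silent targets, whereas the 10 genes had 187 to 2340 counts in every library.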
